A study of Danio rerio with 48 samples.

Results

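The proteasome genes described here are the 49 rows of the deposited expression sheet whose symbols run from psma1 to psmg3, with the inducible immunoproteasome genes psmb8a, psmb9a, psmb10 and psmb12 left out, of 15245 listed genes in all. They were chosen by symbol alone and hold 9 alpha genes, 8 beta genes, 7 psmc ATPase genes, 16 psmd genes, 4 psme activator genes, psmf1, 3 psmg assembly genes and psmc3ip, which shares the symbol stem but encodes a meiotic recombination cofactor and no proteasome subunit. A filter on low values, a pseudocount of at least 5 in at least 6 libraries, left 47 of them among 11395 tested genes; psmb11b and psmc3ip did not pass it. Pseudocounts of psmb11b lay between 0 and 1.13, and those of psmc3ip between 0 and 7.12.

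The study exposed adult albino zebrafish, 6 to 9 months old, to chronic low light (CLL), which was continuous halogen light of about 5000 lux for up to 28 days, and asked how the retina responds to lasting light stress. All fish, controls included, were first kept in the dark for 24 h, and the 0 h controls were taken at the end of this dark adaptation with no light treatment. The other groups were taken 24, 36 and 72 h post light onset (hpl) and 5, 10, 14 and 28 days post light onset (dpl). Each of the 8 time-points had 6 libraries of 3′ mRNA tags from whole retina. In whole retina, fewer cells of a type and less RNA per cell cannot be told apart.

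The proteasome is the large protease that degrades proteins tagged with ubiquitin. Its barrel-shaped core has outer rings of alpha subunits, which gate the entry, and inner rings of beta subunits, of which psmb5, psmb6 and psmb7 encode those with protease activity. The cap that sits on the core has a ring of ATPases (psmc), which unfold and feed in substrates, and further subunits (psmd) that bind ubiquitin chains or, like psmd14, cut them off. Other activators (psme) can take the place of the cap, and photoreceptors, which renew their outer segments and make much opsin, are known in mice to be sensitive to a shortage of proteasome capacity.

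The pseudocounts of a library summed to between 1631676 and 1636771, since the authors had set the libraries to one size, so their sequencing depth is unknown here. Libraries fell into 2 sets, replicates 1 to 3 (set 1) and 4 to 6 (set 2), and exact zeros ranged from 1243 to 3729 genes per library. The 2 libraries of the 0 h group without a replicate number are called library A of set 1 and library A of set 2. The retinal label was checked on the rod markers, and rho, the rod opsin, had 0 h pseudocounts between 52016 and 64130 in every library. Of the 11 rod markers tested, limma called 6 lower and 2 higher at 24 hpl, beside 7.14% and 8.37% of all tested genes. For 28 dpl the counts were 6 lower and 1 higher, beside 3.26% and 7.74%. The part of cell loss in the results below was not tested.

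Together the 49 genes took up a larger share of the retinal signal after the first day of light. At 0 h they made up 0.339% to 0.399% of the summed pseudocounts of a library, with a median of 0.392%. At 24 hpl the range was 0.242% to 0.395% around a median of 0.342%, at or below the level of the controls. From 36 hpl on, 34 of 36 libraries lay above the highest 0 h library; the exceptions were 36 hpl replicate 4 and 72 hpl replicate 4. In the order of the 6 time-points from 36 hpl on, the medians were 0.496%, 0.548%, 0.5003%, 0.454%, 0.471% and 0.513%. At 28 dpl the lowest library, at 0.504%, was above every control.

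**Figure D1:**
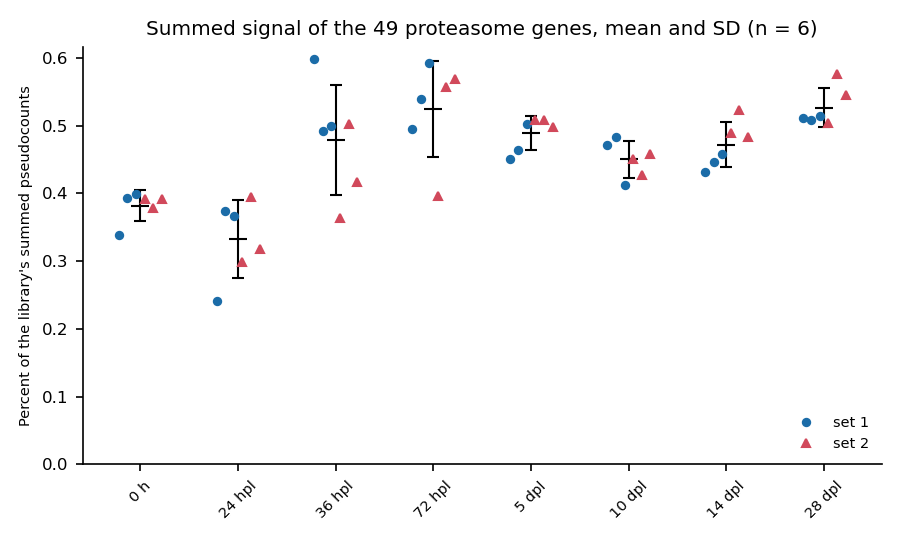
Share of each library's summed pseudocounts taken by the 49 proteasome genes (y axis, percent) at the 8 time-points (x axis). Points are libraries by set and bars are the mean and SD (n = 6); all 28 dpl libraries lie above 0.504% and all 0 h libraries at or below 0.399%.

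Gene by gene, 32 of the 47 tested members differed over the 8 time-points in limma's F test at an adjusted p under 0.05, or 68.1%, against 32.3% of all tested genes. The members varied less between replicates than most genes, with a median standard error of 0.18 on the log2 scale against 0.32 over all tested genes, so that smaller changes could pass in them. Against 0 h, 31 members passed the test at 1 or more time-points. Of these, 27 were higher and 4 were lower (psmc1a, psmc6, psmd13 and psme4b). The share of all tested genes called at 1 or more time-points was not counted. At single time-points it was 5.59% to 9.66% higher and 1.51% to 7.14% lower. The 7 comparisons with 0 h share the same 6 control libraries and are not independent of each other. Fold changes are on the log2(pseudocount + 1) scale throughout.

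At 24 hpl most members had log2 fold changes below 0, and few passed the test. The median log2 fold change over the 47 was -0.21, against -0.07 over all tested genes, and 36 of the 47 were negative. Only 2 members were higher, against a background of 8.37% of all genes, and 3 were lower, against 7.14%. The lower ones were psmd13, a cap subunit, and the cap ATPase genes psmc1a and psmc6; psme1 and psmd9 were higher. The total of 5 fell to 2 without 0 h library A of set 2 or without 24 hpl replicate 1, and to 3 without 0 h replicate 3 or 5 or without 24 hpl replicate 3, 4 or 6.

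The largest fall at 24 hpl was that of psmd13. Its pseudocounts ran from 121 to 245 with a median of 199 at 0 h, and from 91.3 to 171 with a median of 123 at 24 hpl. The ranges overlapped, and no library of 24 hpl exceeded the highest control. The log2 fold change was -0.60 ± 0.16 (SE, n = 6 against 6; limma adjusted p = 0.0077). At every later time-point psmd13 had a log2 fold change between -0.08 and 0.41 and did not pass the test.

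Among the steps from one time-point to the next, most calls lay between 24 and 36 hpl. Unlike the other time-points, 36 hpl was not a whole number of days after light onset. Its comparisons may thus also differ in time of day, and the part of time of day was not tested. From 24 to 36 hpl, a comparison that does not use the controls, 29 of the 47 members rose and 1 fell. The backgrounds were 13.8% and 6.52% of all tested genes. The median log2 fold change over this step was 0.56, against 0.21 for all tested genes. The largest rises were those of psma5 (1.02 ± 0.20, SE), psmb1 (0.98 ± 0.17), psmd2 (0.78 ± 0.19) and psmc1a (0.78 ± 0.13), with limma adjusted p of 9.4e-05, 1.1e-05, 0.00184 and 1.1e-05. The single gene to fall was psme4b. Without 24 hpl replicate 1, the lowest library in the plot of summed signal, 19 members passed in place of 30.

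This step depended on scaling. Rescaling the libraries by their median ratio moved the log2 fold changes of all genes by a median of -0.20, and 9 members then rose and 1 fell; with upper quartile rescaling, 12 rose and 1 fell. The members' median remained above that of all genes, at 0.35 against 0.01 with median ratios. In the next step, from 36 to 72 hpl, 3 members rose (psmb6, psme1 and psme4b; background 3.59%) and none fell (background 4.88%), while 4 rose at an unadjusted p under 0.05 and none fell. For the steps after 72 hpl limma called 0 members in either direction. At an unadjusted p under 0.05, 4 had fallen by 5 dpl from 72 hpl (0 had risen), and 2 between 5 and 10 dpl (0 had risen). Between 10 and 14 dpl 4 had risen and 1 had fallen, and between 14 and 28 dpl 4 had risen (0 had fallen). At an adjusted p under 0.05, as for the 0 members called, the backgrounds for these steps were near 0 as well. From 72 hpl to 5 dpl 0.0702% of all genes were higher and 0.00878% lower, and from 5 to 10 dpl 0.0351% and 0%. From 10 to 14 dpl these shares were 0.0176% and 0.228%, and from 14 to 28 dpl 0% in both directions. The share of all genes at an unadjusted p under 0.05 is not given here, so the unadjusted counts have no background beside them.

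Against 0 h, 13 members were higher and 1 was lower at 36 hpl (backgrounds 9.66% and 3.8%), with a median log2 fold change of 0.33 against 0.13 over all genes. Rescaling by median ratio or upper quartile left 3 higher and 1 lower, and shifted all genes by a median of -0.16 and -0.13. The total of 14 fell to 6 without 36 hpl replicate 1, to 7 without 0 h library A of set 1, to 8 without 0 h replicate 5, and to 9 without 36 hpl replicate 2 or 5. Within set 1 the members' median was 0.51, and within set 2 it was 0.19.

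At 72 hpl, 18 members were higher and 0 lower (backgrounds 9.2% and 5.7%), and none was lower at an unadjusted p under 0.05. The median log2 fold change was 0.44, against 0.03 over all genes, and 45 of the 47 were positive. Rescaling by median ratio or upper quartile left 16 higher. Leaving out any single library gave 13 to 22.

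At 5 dpl, 9 members were higher and 0 lower (backgrounds 6.49% and 2.09%), with a median of 0.31 against 0.08 over all genes. At 10 dpl, 3 were higher and 0 lower (backgrounds 6.41% and 1.51%), a share close to the background, with a median of 0.25 against 0.16. The 3 were psme1, psmd5 and psmg1. Only psme1 remained without 0 h library A of set 1 or without 10 dpl replicate 1, 2 or 4. At an unadjusted p under 0.05, 16 members were higher and 1 lower at 5 dpl, and 14 and 0 at 10 dpl. No background at that threshold is given. At 14 dpl, 9 were higher and 1 lower (backgrounds 5.59% and 2.31%), with a median of 0.29 against 0.04; the total of 10 fell to 6 without 0 h library A of set 1.

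At 28 dpl, 20 members were higher and 1 lower (backgrounds 7.74% and 3.26%). The median log2 fold change was 0.50, against 0.03 over all genes, and 45 of the 47 were positive. Rescaling by median ratio or upper quartile left 15 and 13 higher. The order of 28 dpl and 72 hpl by number of higher members thus turned with the scaling, against 16 at 72 hpl under either. The members' median stayed larger at 28 dpl, at 0.42 against 0.37 with median ratios and 0.43 against 0.40 with upper quartiles. In set 1 alone the total of calls higher or lower was 5 at 28 dpl and 9 at 72 hpl. Leaving out a single library gave totals of 15 to 23 at 28 dpl. Over the whole course, 39 members were positive at all 6 time-points from 36 hpl on, and psme4b alone was negative at all 6. These comparisons share their controls, and the median over all tested genes was also above 0 at each of the 6 (0.03 to 0.16). The matching share of all tested genes was not counted.

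**Figure D2:**
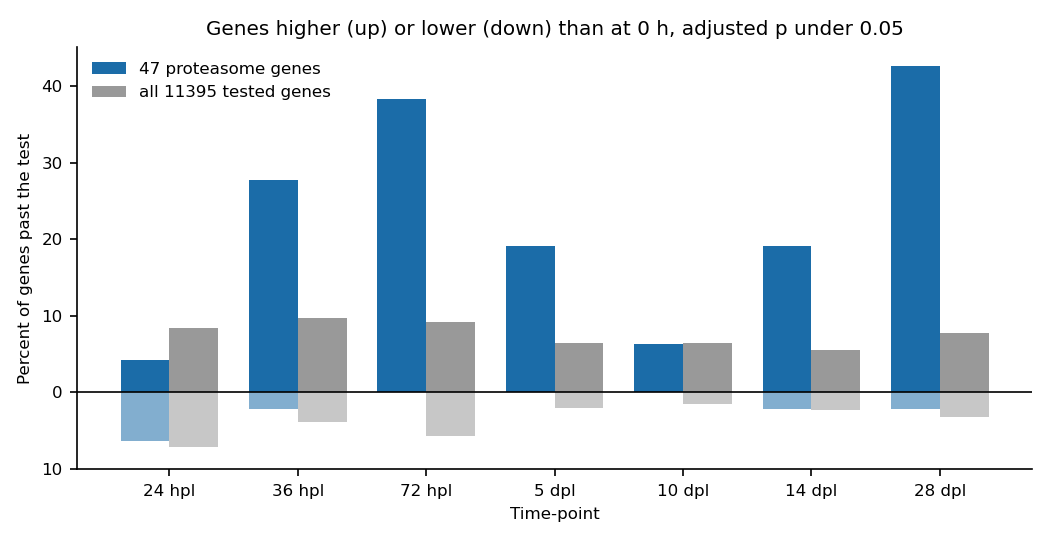
Percent of the 47 tested proteasome genes (blue) and of all 11395 tested genes (grey) that were higher (upward bars) or lower (downward bars) than at 0 h at each time-point in limma at an adjusted p under 0.05. The members' share of higher genes is 38.3% at 72 hpl and 42.6% at 28 dpl, and at 10 dpl it is 6.38% beside 6.41% of all genes; the counts at 36 hpl and the order of 72 hpl and 28 dpl depend on scaling.

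Core and cap genes are given apart. Of the 16 tested alpha and beta genes, the counts higher than at 0 h were, in the order of the 6 time-points from 36 hpl on, 4, 9, 5, 0, 4 and 12, with a median log2 fold change of 0.63 at 28 dpl. Of the 23 tested psmc and psmd genes, 7, 7, 3, 1, 3 and 6 were higher in the same order, with a median of 0.35 at 28 dpl. These 23 were grouped by symbol and include psmd5 and psmd9, which encode assembly chaperones of the cap base. The backgrounds were 9.66%, 9.2%, 6.49%, 6.41%, 5.59% and 7.74% of all tested genes. At 10 dpl neither group exceeded its background, and at the other 5 time-points both did. The difference between core and cap was not tested.

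The beta gene psmb1, a structural subunit of the inner ring chosen for this description after its values were seen, had the largest change past the test among the core genes at 36 hpl and from 5 dpl on, apart from 10 dpl, where no core gene passed. Its pseudocounts ran from 107 to 207 at 0 h around a median of 168. They ran from 242 to 391 around 329 for 72 hpl, from 284 to 393 around 312 for 5 dpl and from 295 to 396 around 316 for 28 dpl. At these times and at 14 dpl every library lay above every control. For 36 hpl, 72 hpl, 5 dpl, 14 dpl and 28 dpl the log2 fold changes were 0.76, 1.01, 1.003, 0.88 and 1.05, each ± 0.17 (SE; limma adjusted p from 6.4e-04 down to 6.0e-06, n = 6 per group). At 10 dpl it was 0.48 and did not pass, and psmb1 libraries there ran from 170 to 307, overlapping the controls.

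The genes of the protease subunits psmb6, psmb7 and psmb5 passed the test against 0 h at 4, 1 and 0 time-points, and the differences between them were not tested. psmb6, which encodes the caspase-like site, had pseudocounts of 81.4 to 158 at 0 h (median 118) and of 101 to 192 at 36 hpl (median 122), with the ranges overlapping. They ran from 136 to 216 around 174 for 72 hpl, from 163 to 197 around 181 for 14 dpl and from 132 to 231 around 210 for 28 dpl. All 14 dpl libraries exceeded all controls. For 72 hpl, 5 dpl, 14 dpl and 28 dpl, psmb6 was higher by 0.64, 0.57, 0.65 and 0.77, each ± 0.15 (SE; limma adjusted p = 0.0017, 0.0071, 0.0023 and 1.7e-04), and its step from 36 to 72 hpl also passed the test (0.45 ± 0.15, adjusted p = 0.046).

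psmb7, which encodes the trypsin-like site, had 0 h pseudocounts of 178 to 263 (median 218) and 28 dpl pseudocounts of 220 to 395 (median 352), so the groups overlapped. Its only call against 0 h was at 28 dpl (0.56 ± 0.18, limma adjusted p = 0.033), and that call was lost without any 1 of 6 libraries (0 h library A of either set, 0 h replicate 6, or 28 dpl replicate 1, 2 or 5; adjusted p up to 0.095). psmb5, which encodes the chymotrypsin-like site, ran from 74.1 to 105 at 0 h (median 83.8) and from 84.8 to 172 at 28 dpl (median 114). Its log2 fold changes, from -0.17 at 24 hpl to 0.43 at 72 hpl, did not pass at any time-point (lowest limma adjusted p = 0.083). psmb5 did differ over the whole course (F test, adjusted p = 0.039) and between 24 and 36 hpl (0.48 ± 0.17, adjusted p = 0.041).

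Among the other beta genes, psmb2 and psmb4 passed the test at 72 hpl, 5 dpl, 14 dpl and 28 dpl, psmb2 at 36 hpl as well, and psmb3 at 28 dpl alone. Their log2 fold changes at 28 dpl were 0.72, 0.74 and 0.56. Among the alpha genes, psma5 was higher at 36 hpl, 72 hpl, 5 dpl and 28 dpl (0.69, 0.62, 0.68 and 0.58), and psma4 at 72 hpl and 28 dpl (0.65 and 0.74). psma8, which had the highest mean pseudocount of the tested members (500 over the 48 libraries), passed at the same times as psma4 (0.65 and 0.64). psma1 and psma3 were higher at 28 dpl only (0.59 and 0.60), and psma2 at no time-point (between -0.29 and 0.51). Some of these calls were lost when 1 library was left out. In the 48 such fits, the call of psmb2 at 36 hpl was lost in 29 and at 14 dpl in 1 (without 0 h library A of set 1). That of psmb3 was lost in 2 (without replicate 5 of 28 dpl, or without that same 0 h library), and those of psmb4 at 5 and 14 dpl in 7 and 5. The calls of psma5 at 72 hpl, 5 dpl and 28 dpl were lost in 5, 1 (without 5 dpl replicate 6) and 26.

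**Figure D3:**
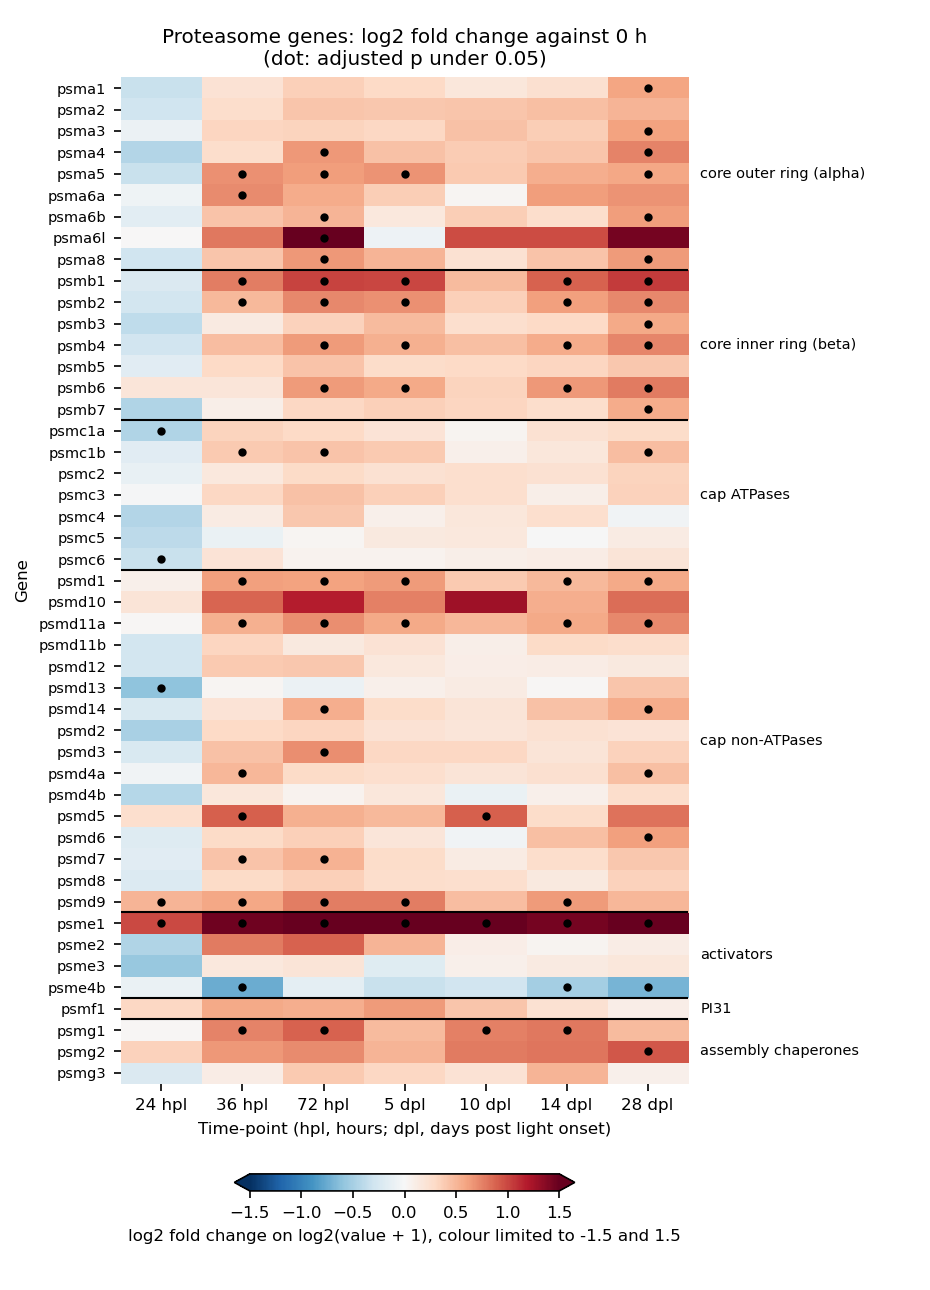
Log2 fold change against 0 h (colour) of the 47 tested proteasome genes (rows, grouped by role) at 7 time-points (columns); a dot marks a limma adjusted p under 0.05. Most rows are pale blue at 24 hpl and red from 36 hpl on, dots are densest in the core rows at 28 dpl (12 of 16), psme1 carries a dot at all 7 time-points, and psme4b is the one row that stays blue.

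Few cap ATPases passed the test against 0 h. Of the 7 tested, psmc1b alone was higher against 0 h, at 36 hpl, 72 hpl and 28 dpl (0.39, 0.43 and 0.46), and psmc1a and psmc6 were lower at 24 hpl (-0.45 and -0.33). The call for psmc6, at a limma adjusted p of 0.047, was lost in 21 of the 48 fits that each left out 1 library. The remaining 4, psmc2 to psmc5, had log2 fold changes between -0.44 and 0.44 and passed at no time-point. From 24 to 36 hpl, however, psmc1a, psmc1b, psmc4 and psmc6 all rose, by 0.78, 0.56, 0.56 and 0.54.

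Of the 16 tested psmd genes, 6 were higher at 36 hpl and at 72 hpl, and 5 at 28 dpl (backgrounds 9.66%, 9.2% and 7.74%). Those at 36 hpl include psmd5 and psmd9, and those at 72 hpl psmd9, which encode assembly chaperones of the cap base. Like psmd9 and psmd11a, psmd1, a large scaffold subunit of the cap base, passed at 5 time-points. It was chosen for this description after its values were seen. Its pseudocounts were 215 to 314 at 0 h (median 234), 338 to 440 at 5 dpl (median 383) and 325 to 386 at 14 dpl (median 343). At 5 and 14 dpl every library lay above every control. For 36 hpl, 72 hpl, 5 dpl, 14 dpl and 28 dpl, psmd1 was higher by 0.62, 0.60, 0.64, 0.48 and 0.57, each ± 0.13 (SE; limma adjusted p of 6.3e-04, 9.8e-04, 5.2e-04, 0.014 and 0.0021). The 28 dpl change in psmd1 was 0.91 in set 1 and 0.24 in set 2, a difference between the sets with a limma adjusted p of 0.13.

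psmd14 encodes the deubiquitinase that removes ubiquitin chains before degradation. Its pseudocounts were 55.46 to 112 at 0 h (median 68.1), 90.1 to 121 at 72 hpl (median 102) and 69.8 to 152 at 28 dpl (median 108). The highest control, library A of set 2, lay within the range of both later groups. psmd14 was higher at 72 hpl (0.55 ± 0.18, SE; limma adjusted p = 0.027) and at 28 dpl (0.56 ± 0.18; adjusted p = 0.029). The first call was lost without any 1 of 6 libraries (0 h replicate 3, 5 or 6, or 72 hpl replicate 1, 2 or 3) and the second without any 1 of 5 (0 h replicate 3, 5 or 6, or 28 dpl replicate 5 or 6), with adjusted p up to 0.086 in both. At 28 dpl the 3 psmd14 libraries of set 2 were all above the 3 of set 1.

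psmd9, which encodes an assembly chaperone of the cap base, was higher at 24 hpl, 36 hpl, 72 hpl, 5 dpl and 14 dpl (0.51, 0.58, 0.77, 0.77 and 0.63). psmd5, another chaperone of the base, passed at 36 hpl and 10 dpl (0.89 and 0.90), and psmd10 (gankyrin) at no time-point, with pseudocounts of at most 38.5. psmd3 was higher at 72 hpl (0.70), psmd6 at 28 dpl (0.61) and psmd7 at 36 and 72 hpl (0.43 and 0.53). psmd2, psmd8 and psmd12 passed at no time-point against 0 h. The call of psmd9 at 24 hpl was lost in 7 of the 48 fits that left out 1 library, those of psmd5 in 4 and 7, and that of psmd7 at 36 hpl in 35.

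**Figure D4:**
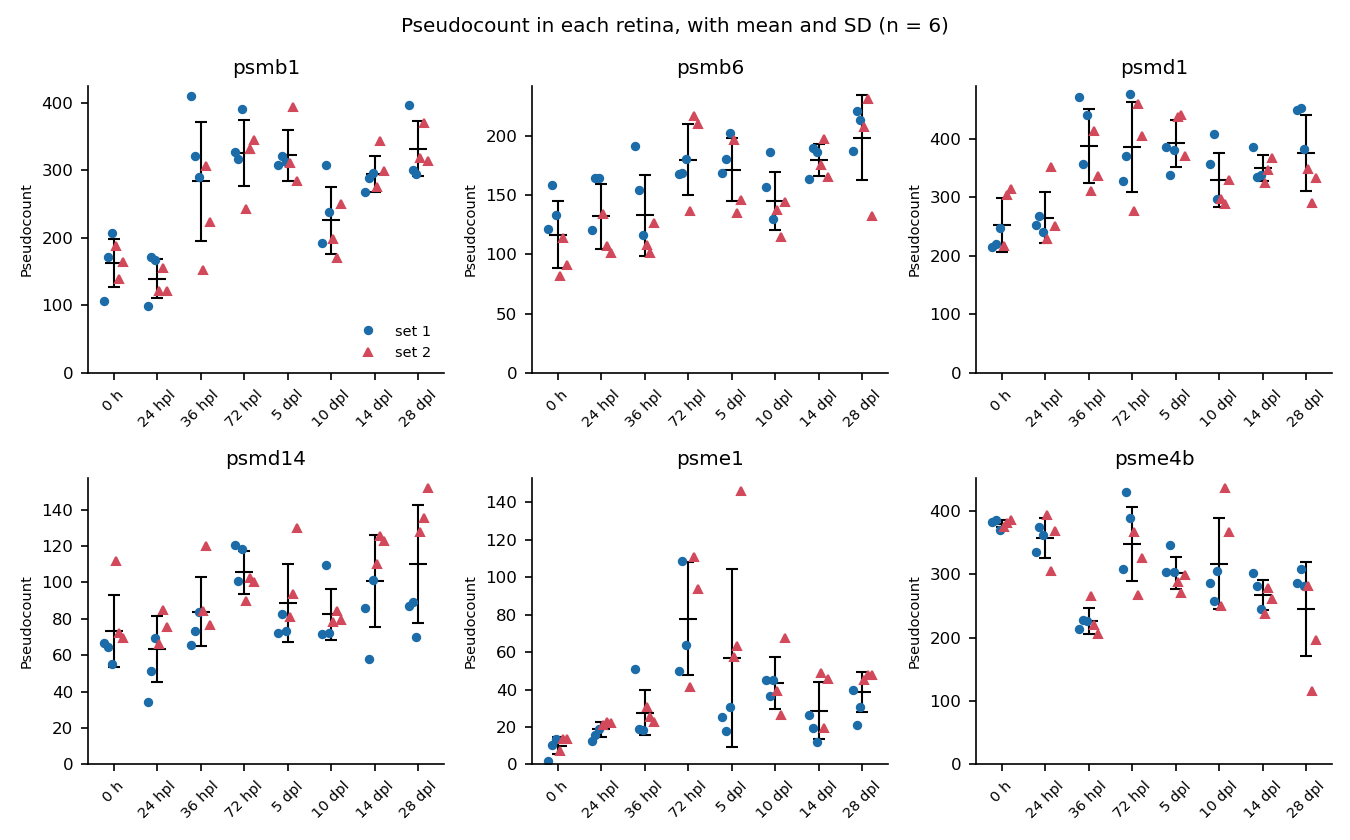
Pseudocount (y axis) of 6 proteasome genes in each library at the 8 time-points (x axis), by library set, with mean and SD (n = 6). psmb1 and psmd1 step up at 36 hpl, psmb6 at 72 hpl, psmd14 overlaps its controls throughout, psme1 peaks at 72 hpl (41.4 to 111), and psme4b drops at 36 hpl (206 to 265) below its controls (370 to 386).

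The activators showed both the largest rise and the only repeated fall. psme1 encodes a subunit of the PA28 ring, which is induced by interferon in mammals and favours peptide release for antigen presentation. At 0 h psme1 had pseudocounts from 1.94 to 13.7 (median 12.04). At 72 hpl they ran from 41.4 to 111 (median 78.5), and at 28 dpl from 20.9 to 47.95 (median 42.3), with no overlap with the controls.

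Against 0 h, psme1 was 7.52-fold higher at 72 hpl (2.91 ± 0.35 on the log2 scale, SE, n = 6 against 6; limma adjusted p = 8.1e-09), and for 5 dpl, 10 dpl and 28 dpl 4.62-fold, 4.35-fold and 3.90-fold higher (adjusted p = 4.9e-06, 1.5e-05 and 4.2e-05). It was higher at 36 hpl and 14 dpl too (1.46 and 1.43, adjusted p = 0.0019 and 0.0040). At 24 hpl the call (0.99 ± 0.35, adjusted p = 0.043) was lost without 0 h library A of either set or without any 1 of the 6 libraries of 24 hpl (adjusted p up to 0.19), although 5 of the 6 psme1 libraries there exceeded the highest control. At 5 dpl, replicate 6 stood far above the other libraries, at 146 against 17.9 to 63.4.

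psme2, which encodes the partner subunit of psme1 in the ring, did not pass at any time-point. Its pseudocounts were 0.956 to 20.3 at 0 h and 8.70 to 35.5 at 72 hpl, and its log2 fold changes ran from -0.45 to 0.88 with a standard error of 0.47. psme3, which encodes the nuclear PA28 gamma, ran from 31.7 to 67.7 at 0 h and had log2 fold changes between -0.57 and 0.19, none past the test (lowest limma adjusted p = 0.071, at 24 hpl).

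psme4b encodes PA200, an activator that acts without ubiquitin. Its controls lay close together, from 370 to 386 (median 381). At 36 hpl the libraries ran from 206 to 265 (median 223), below every control. psme4b fell by 0.75 on the log2 scale (SE 0.15; limma adjusted p = 1.8e-04). At 72 hpl it ran from 267 to 429 (median 346), back over the range of the controls, and the rise from 36 to 72 hpl passed the test (0.60 ± 0.15, adjusted p = 0.0039).

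Later, psme4b was again below the controls, at 270 to 346 for 5 dpl (log2 fold change -0.33, not past the test). At 10 dpl it ran from 249.7 to 436 (median 295), with 5 libraries below and 1 above the range of the controls, and its change of -0.29 did not pass. The libraries ran from 237 to 302 for 14 dpl and from 116 to 308 for 28 dpl, again below every control. It fell by 0.51 at 14 dpl (adjusted p = 0.020; 0.052 without 14 dpl replicate 3) and by 0.70 at 28 dpl (SE 0.15; adjusted p = 5.8e-04). The 28 dpl change in psme4b was -0.38 in set 1 and -1.03 in set 2, a difference between the sets with an adjusted p of 0.18. A copy named psme4a is not analysed here.

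The immunoproteasome genes, which replace the protease subunits of the core under interferon, are given beside psme1 because both are known to respond to it. psmb8a had 0 h pseudocounts of 0.0229 to 7.99 and 28 dpl pseudocounts of 10.8 to 29.8, with no overlap; it was higher at all 7 time-points, from 2.06 at 24 hpl to 3.199 at 5 dpl. psmb10 was higher at 36 hpl, 72 hpl, 5 dpl, 10 dpl and 28 dpl, reaching 2.69 at 5 dpl. psmb12 was higher at every time-point from 72 hpl on, between 1.58 and 2.27, and psmb9a at 36 hpl and 10 dpl (1.82 and 1.97). The 4 genes together, psmb9a included, summed to 4.06 to 11.3 at 0 h and to 20.4 to 56.8 at 28 dpl.

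Markers of microglia and macrophages moved over the same period. Of the 15 tested, none was lower in limma, and in the order of the 7 time-points under light 0, 3, 4, 7, 10, 3 and 4 were higher. Over all tested genes the shares higher were, in the same order, 8.37%, 9.66%, 9.2%, 6.49%, 6.41%, 5.59% and 7.74%, so that the markers lay above the background at every time-point but 24 hpl. Their summed pseudocounts ran from 221 to 385 at 0 h and then, in the same order, from 187 to 354, 279 to 581, 155 to 784, 688 to 1085, 655 to 1285, 513 to 779 and 531 to 928. The defining marker mpeg1.1 was above 0 in every library, and c1qa was at 0 in 3 of 48. The highest median of psme1 was at 72 hpl and that of the microglial sum, 909, at 10 dpl. The part of microglia in the rise of psme1 and of the immunoproteasome genes was not tested.

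The remaining members are the inhibitor and the assembly genes. psmf1, which encodes the inhibitor PI31, had positive log2 fold changes at all 7 time-points, from 0.09 to 0.63, and passed at none (standard error 0.23). Of the genes of the core assembly chaperones, psmg1 was higher at 36 hpl, 72 hpl, 10 dpl and 14 dpl (0.74, 0.88, 0.75 and 0.80), psmg2 at 28 dpl (0.93) and psmg3 at no time-point. The calls of psmg1 at 36 hpl, 10 dpl and 14 dpl were lost in 7, 8 and 8 of the 48 fits that left out 1 library, and that of psmg2 in 19. pomp, which encodes the maturation factor of the core and is not among the 49, was higher at 72 hpl, 14 dpl and 28 dpl (0.57, 0.55 and 0.82).

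Zebrafish carry some proteasome genes in more than 1 copy, and the copies are set side by side here; how reads that match both copies were assigned is not given in the sources used here, and differences between copies were not tested. psmd11a and psmd11b encode a lid subunit. psmd11a ran from 56.0 to 92.1 at 0 h (median 74.7) and from 94.7 to 153 at 28 dpl (median 123), with no overlap, and was higher by 0.73 ± 0.18 (SE; limma adjusted p = 0.0050). psmd11b ran from 50.0 to 80.6 at 0 h and from 63.1 to 119 at 28 dpl, with a change of 0.26 ± 0.20 (adjusted p = 0.45). psmd11a passed at 36 hpl, 72 hpl, 5 dpl, 14 dpl and 28 dpl and psmd11b at none, although from 24 to 36 hpl both rose (0.52 and 0.60). The calls of psmd11a at 36 hpl, 5 dpl and 14 dpl were each lost in 9, 8 and 19 of the 48 fits that left out 1 library, those without 0 h replicate 2, 3, 5 or 6 among them.

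psmd4a and psmd4b encode a ubiquitin receptor of the cap. psmd4a had 0 h pseudocounts of 99.0 to 163 and 36 hpl pseudocounts of 139 to 211, and was higher at 36 hpl (0.50 ± 0.15, SE; limma adjusted p = 0.020). That call was lost without 36 hpl replicate 1, 0 h library A of set 1 or 0 h replicate 5 (adjusted p up to 0.080). It was higher at 28 dpl too (0.45, adjusted p = 0.046), a call lost in 10 of the 48 fits, among them those without any 1 of the 28 dpl libraries. psmd4b had log2 fold changes between -0.42 and 0.26 and passed at no time-point.

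psmc1a and psmc1b encode 1 of the ATPases. psmc1a ran from 275 to 360 at 0 h and from 157 to 280 at 24 hpl, overlapping only at the edge, and was lower there (-0.45 ± 0.13, SE; limma adjusted p = 0.013; 0.075 without 24 hpl replicate 1, the lowest library). psmc1b ran from 166 to 387 at 0 h and from 148 to 363 at 24 hpl, with a change of -0.17. The calls of psmc1b at 36 and 72 hpl were lost in 6 and 5 of the 48 fits that left out 1 library. At 28 dpl psmc1b was higher (0.46, adjusted p = 0.015; 0.070 without 0 h library A of set 1) and psmc1a, at 0.28, was not past the test.

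psma6a, psma6b and psma6l encode 1 of the alpha subunits. psma6a was higher at 36 hpl (0.70 ± 0.24, SE; limma adjusted p = 0.037), a call lost in 9 of the 48 fits that left out 1 library, and psma6b at 72 hpl and 28 dpl (0.51 and 0.62, adjusted p = 0.038 and 0.012), the first lost in 7. At 28 dpl psma6b ran from 109 to 148, above all its controls (62.1 to 98.3). psma6l was near the limit of measurement, with 0 h pseudocounts of 1.09 to 5.90 and 72 hpl pseudocounts of 6.87 to 13.8. These did not overlap, and psma6l was higher at 72 hpl (1.70 ± 0.59, adjusted p = 0.042), a call lost in 8 of the 48 fits.

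**Figure D5:**
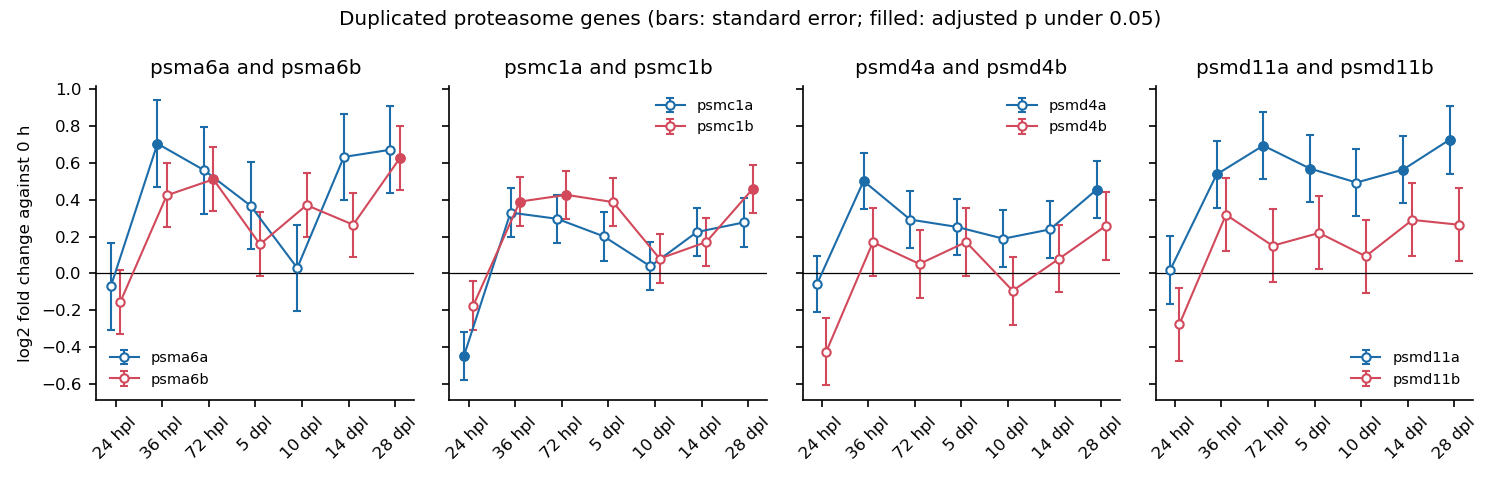
Log2 fold change against 0 h (y axis, bars are the standard error) of 4 pairs of duplicated proteasome genes at 7 time-points (x axis); filled points have a limma adjusted p under 0.05. For psmd11 and psmd4 the b copy lies below the a copy at all 7 time-points and only the a copy has filled points, psmc1a alone is filled at 24 hpl, and the copies of psma6 cross.

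The correlation of the members from library to library within a time-point is given as a description. After time-point and library set were taken out, the median Pearson correlation over the 48 libraries was 0.24 between members and 0.006 between members and all other tested genes. By group it was 0.48 between core genes, 0.28 between cap genes and 0.30 between core and cap genes. psmb3 had the highest median correlation with the other members (0.49) and psme4b the lowest (-0.18), and psma6l, psmf1, psme3 and psmg1 lay near 0 (-0.04, -0.04, 0.04 and 0.07). These are descriptions over libraries that share their size scaling.

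The change against 0 h was compared between the library sets in a fit with an interaction term. In limma, 0 members differed between sets at any time-point. At an unadjusted p under 0.05 there were, in the order of the time-points, 0, 6, 2, 0, 4, 5 and 9. At an adjusted p under 0.05, 2.85% of all tested genes differed between sets at 28 dpl and at most 0.0351% at any other time-point. These shares go with the 0 members called at that threshold. The unadjusted counts have no background beside them. The members nearest to passing at 28 dpl were psmd10, psmd2 and psmd8 (limma adjusted p = 0.070, 0.079 and 0.081). Their changes had opposite signs in the sets: -0.38 and 2.06, 0.73 and -0.33, and -0.20 and 0.90 in sets 1 and 2. The median change of the members at 28 dpl was 0.52 in set 1 and 0.61 in set 2. It was 0.57 and 0.37 at 72 hpl, and -0.23 and -0.20 at 24 hpl.

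Genes that work with the proteasome were tested as well. Of 16 genes for its expression, assembly and associated factors, 4 were higher and 1 lower at 24 hpl (backgrounds 8.37% and 7.14%), and 6 were higher at 72 hpl (9.2%). zfand5a, whose mammalian counterpart stimulates the proteasome, had 0 h pseudocounts of 49.6 to 82.3 and 24 hpl pseudocounts of 197 to 613, and was 5.93-fold higher at 24 hpl and 2.85-fold higher at 28 dpl (limma adjusted p = 1.5e-14 and 1.3e-07). Every library under light exceeded every control. nfe2l1a is a copy of the factor that drives proteasome genes in mammals. It was higher at 24, 36 and 72 hpl and 10 dpl (1.38, 1.77, 2.44 and 1.69). Its 0 h pseudocounts were low, from 0.0299 to 7.21, so these log2 values depend on the added 1. The other copy, nfe2l1b, had higher 0 h pseudocounts (20.3 to 35.3) and reached at most 65.8 in any library. The test of nfe2l1b is not given here. zfand5b was higher at 24 hpl, 72 hpl and 10 dpl (1.83, 0.74 and 0.77).

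Of 25 genes of ubiquitin supply, its activation and the p97 pathway, 2, 4, 5, 2, 1, 4 and 3 were higher in the order of the time-points and none was lower in limma. At 24 hpl, 5 dpl and 10 dpl these counts were close to or under the backgrounds of 8.37%, 6.49% and 6.41%, and at the other time-points above them. The list's share of the library signal had a median of 0.602% at 0 h and 0.552% at 24 hpl, then 0.726%, 0.701%, 0.667%, 0.669%, 0.726% and 0.755% in the order of the later time-points. These medians, like those of the 49 proteasome genes, lay below the 0 h median at 24 hpl and above it from 36 hpl on. ubb, a polyubiquitin gene, had 0 h pseudocounts of 118 to 282 and 36 hpl pseudocounts of 398 to 493, with no overlap, and was higher at 24, 36 and 72 hpl (0.91, 1.37 and 0.97) but not later. rps27a, which encodes a fusion of ubiquitin and a ribosomal protein, was higher at 72 hpl, 5 dpl, 14 dpl and 28 dpl, up to 0.72. rps27.1, counted in this list, encodes a ribosomal protein and was higher at 14 and 28 dpl (0.54 and 0.68). rps27a and rps27.1 were thus among the 4 genes of this list higher at 14 dpl and the 3 higher at 28 dpl. The share above the background at 28 dpl leaned on these 2 genes.

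Stress genes passed the test over the same period. Of 23 heat shock genes, 6, 3, 15, 11, 5, 10 and 6 were higher in the order of the time-points, and 1 was lower at 24 hpl and 1 at 28 dpl; the shares higher exceeded the background at all 7. hsp70.3 and bag3 led them at 72 hpl (4.18 and 2.97), followed by hsp70l (2.66). Of 12 genes listed for Nrf2, the factor of the oxidative stress response, 4, 5, 6, 3, 3, 1 and 2 were higher in the order of the time-points. The backgrounds were 8.37%, 9.66%, 9.2%, 6.49%, 6.41%, 5.59% and 7.74%. Besides targets, the list holds the genes of Nrf2 itself (nfe2l2a and nfe2l2b) and of its repressor (keap1a and keap1b). Of the targets, prdx1 was higher at all 7 (3.11 at 24 hpl and 1.70 at 28 dpl) and hmox1a at 5 of 7 (2.35 at 5 dpl). nfe2l2b was higher at the first 4 (2.55 at 24 hpl), from 0 h pseudocounts of at most 1.04, and was at 0 in 8 of 48 libraries.

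Other broadly expressed genes rose with the members. Of 83 cytosolic ribosomal protein genes, a list added after the members' values were seen, 6 were lower at 24 hpl, and 0, 8, 47, 60, 27, 65 and 74 were higher in the order of the time-points, at 36 hpl a share close to the background of 9.66%, with a median log2 fold change of 0.76 at 28 dpl beside 0.50 for the proteasome genes. Markers of the retinal pigment epithelium, which may come off with the retina, moved as well. Of 12 tested, 2 were lower at 24 hpl (background 7.14%), and 4, 7, 7, 6, 6, 5 and 7 were higher in the order of the time-points. The backgrounds for higher were, in the same order, 8.37%, 9.66%, 9.2%, 6.49%, 6.41%, 5.59% and 7.74% of all tested genes. Their summed pseudocounts ran from 6142 to 12482 at 0 h and, in the order of the later time-points, from 6172 to 24209, 14861 to 25359, 7983 to 32276, 13324 to 22920, 12714 to 19596, 13286 to 19788 and 14900 to 27710; the defining marker rpe65a was above 0 in every library. The part of either group in the rise of the proteasome genes was not tested.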

How the data were processed

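Whole retinas of 48 albino zebrafish libraries were sequenced by the authors with QuantSeq 3′ mRNA kits. Per the labels, STAR, HTSeq and edgeR were used; their versions are not given in the sources used here. The deposited values are the authors' pseudocounts, a normalized signal that edgeR scales to one library size, and not counts, so no count test was run. A sheet of means and 2 sheets with the authors' own comparisons (fold changes and p-values) were not used.

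From these values, limma (version 3.58.1, R 4.3.3) was fitted to log2(pseudocount + 1) of all 48 libraries, on terms for time-point and set, with trended empirical Bayes moderation (39 residual degrees of freedom). The test covered the 11395 genes that reached a pseudocount of 5 in 6 or more libraries, after 12 symbols that a spreadsheet had turned into dates were left out. Two-sided p-values were adjusted over all tested genes by the Benjamini-Hochberg method, and called at 0.05. The authors describe 2 rounds of light treatment, but the labels do not tie libraries to a round. Whether the 2 library sets are these rounds is unknown here. The labels do not say that replicates came from separate tanks or days, so p-values measure the spread between these libraries. Some libraries of a time-point shared one count of exact zeros, such as 1243 genes in 36 hpl replicates 4, 5 and 6. Whether the deposited values are independent between libraries of a time-point is thus unknown here.

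Columns of 2 of the 0 h libraries matched both unnumbered samples and were used as members of the group only. Given with library values were the members with the largest rise and fall past the test at each time-point, psmb5, psmb6, psmb7, psmd14, psme1 to psme4 and duplicated members, and up to 3 genes of each list with the largest change. The members were taken by symbol alone, but this family and the lists were chosen with earlier results of these data known. Of the 49 symbols, 48 were found in RefSeq's gene table. Alternatives were another pseudocount (5), no filter, 2 rescalings, no set term, no trend, each set alone, a replicate block and leaving out each library; after seeing the data, leaving out 72 hpl replicates 1 and 2, and the unnumbered 0 h libraries, was added. The fit was tested on simulated data.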

Additional observations from a re-analysis of the deposited data

Results flagged for a closer look

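Each of 20 proteasome genes and the sum of all members was checked at each time-point for a highest or lowest library that stands apart from the other 5. Of 168 groups, 15 held such a library, where chance alone flags about 1 in 20. psme1 had a high library at 36 hpl (replicate 1, 50.7 against at most 30.5 in the others) and at 5 dpl (replicate 6, 146 against at most 63.4). psmd14 had one at 0 h (library A of set 2, 112 against at most 72.4), at 36 hpl (replicate 5, 120 against at most 84.2) and at 10 dpl (replicate 2, 109 against at most 84.2). psmc1a was low in 24 hpl replicate 1 (157 against at least 235) and high in 5 dpl replicate 4 (523 against at most 385).

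psme4b was high in 36 hpl replicate 4 (265 against at most 227), where psma6a was low (35.7 against at least 68.4). psme2 was high in 72 hpl replicate 6 (35.5 against at most 18.2), psme3 in 0 h replicate 6 (67.7 against at most 43.1) and psma6l in 10 dpl replicate 1 (18.9 against at most 7.63). psmb1 was high in 5 dpl replicate 5 (393 against at most 322) and psmd1 in 24 hpl replicate 5 (351 against at most 268). The summed pseudocounts of all members were low in 0 h library A of set 1, at 5537 against at least 6186 in the other controls.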

How the results depend on the processing

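No member changed direction among calls under any alternative, and of the 80 calls of a member at a time-point, 46 held in all 48 fits that left out 1 library and 52 under both rescalings. Totals of members higher or lower, as given in the report, moved as follows.

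With set 1 alone the totals for 24 hpl, 36 hpl, 72 hpl, 5 dpl, 14 dpl and 28 dpl were 1, 9, 9, 2, 2 and 5, and 1 from 36 to 72 hpl. From 24 to 36 hpl set 1 alone gave 28, and 25 members differed over the time-points. With set 2 alone the totals were, over all 7 time-points in order, 0, 0, 4, 4, 1, 4 and 12. From 24 to 36 hpl set 2 alone gave 0 and from 36 to 72 hpl 1, and 11 members differed over the time-points. Both fits hold fewer libraries than the main fit, with 3 per time-point in each. Rescaling by median ratio gave 4 at 36 hpl, 1 at 10 dpl and 10 from 24 to 36 hpl, and by upper quartile 4, 1 and 13. With no filter 1 member passed at 10 dpl. Without the unnumbered 0 h libraries the totals for 24 hpl, 36 hpl, 10 dpl and 14 dpl were 3, 6, 1 and 3.

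Replicate numbers did not pair the libraries: same-numbered libraries of different time-points had a median residual correlation of -0.034, against -0.037 for other numbers of the same set, and 7 of 46 correlated best with their own number. The fit with a replicate block, which leaves out the unnumbered libraries, gave 2, 6, 1 and 4 for the same time-points.

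Leaving out 1 library gave, over the 7 time-points in order, 2 to 6, 6 to 15, 13 to 22, 7 to 12, 1 to 4, 6 to 10 and 15 to 23, then 19 to 33 from 24 to 36 hpl, 2 to 4 from 36 to 72 hpl and 28 to 33 over all time-points. Depth is unknown in these values, and the members at low pseudocounts (psma6l, psmd10, psme1 and psme2) have the widest errors.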
